A study of Mus musculus with 11 samples.

Results

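Collagen chain genes encode the subunits of the collagens, the main structural proteins of bone, cartilage, basement membranes and the acellular layers of the inner ear. Members were all genes of the deposited tables whose symbol has the form of a collagen chain name (Col, a type number, the letter a and a chain number), which gave 44 genes of 18667. The libraries came from whole cochleae of mice on the C57BL/6J background, 5 from Atf6+/+ mice and 6 from Atf6-/- mice, each an individual cochlea of an animal 2 months of age. The labels do not say whether each library came from a different animal, so p-values measure the spread between these libraries. The Atf6-/- mice carry an early stop codon in exon 4 of Atf6 in all cells, both sexes were used, the controls were littermates, and both genotypes share the defective Cdh23ahl allele of the strain, which is linked to age-related hearing loss. ATF6 is a membrane-bound transcription factor of the endoplasmic reticulum that is cut and released when unfolded proteins build up there. The study asked which molecular defects accompany the hearing loss of Atf6-/- mice, and the comparison here asks whether transcripts of collagen chains, a large secretory cargo, differed between the genotypes. All values are FPKM, which scale the fragments of a gene by its transcript length and by the size of the library, so that levels of different chains are set side by side per length.

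Collagen chains wind around each other into triple helices in the endoplasmic reticulum, after prolines and lysines have been hydroxylated, and are then exported and trimmed. Fibrillar collagens form the banded fibrils of bone (types I and V) and cartilage (types II and XI), type IV collagens form the network of basement membranes, and FACITs, fibril-associated collagens with interrupted triple helices, decorate fibril surfaces. In the cochlea, types II, IX and XI are known from the tectorial membrane and the spiral ligament, type IV chains line the basement membranes of the stria vascularis and the vessels, and type I is abundant in the bony otic capsule that surrounds the inner ear. A whole cochlea therefore holds bone, bone marrow, cartilage-like matrix, epithelium, nerve and vessels, and in such bulk samples fewer cells of a type and less RNA per cell cannot be told apart.

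Sequences upstream of collagen genes are shown for 6 chains on which the results below turn: the bone chain Col1a2, the cochlear chains Col11a2 and Col9a2, the FACIT chain Col16a1, and the head-to-head pair Col4a5 and Col4a6. They are the 250 bases before the annotated transcription start, from RefSeq on mouse build GRCm38.p6 and written on the gene's own strand, and capitals mark the letters CCAAT or TATAAA. The expression files were made on GRCm39, so these positions were not set against them. Col1a2 is at chr6:4505368-4505617 (plus strand), Col11a2 at chr17:34038888-34039137 (plus), Col9a2 at chr4:121039316-121039565 (plus), Col16a1 at chr4:130047590-130047839 (plus), Col4a5 at chrX:141475169-141475418 (plus) and Col4a6 at chrX:141474077-141474326 (minus).
Col1a2: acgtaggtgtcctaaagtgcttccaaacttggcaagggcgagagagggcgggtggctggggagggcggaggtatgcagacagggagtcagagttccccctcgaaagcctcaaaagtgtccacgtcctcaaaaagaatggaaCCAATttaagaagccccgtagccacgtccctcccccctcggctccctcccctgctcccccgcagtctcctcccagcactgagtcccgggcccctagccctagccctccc
Col11a2: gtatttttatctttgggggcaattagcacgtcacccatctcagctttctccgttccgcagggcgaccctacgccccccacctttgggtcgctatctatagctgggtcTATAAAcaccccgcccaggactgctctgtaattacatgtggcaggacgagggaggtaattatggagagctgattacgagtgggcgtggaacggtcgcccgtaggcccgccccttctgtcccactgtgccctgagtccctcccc
Col9a2: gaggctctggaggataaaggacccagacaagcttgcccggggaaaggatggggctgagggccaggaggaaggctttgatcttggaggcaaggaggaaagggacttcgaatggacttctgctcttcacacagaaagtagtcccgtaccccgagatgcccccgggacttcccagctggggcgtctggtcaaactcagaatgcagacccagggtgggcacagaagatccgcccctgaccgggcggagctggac
Col16a1: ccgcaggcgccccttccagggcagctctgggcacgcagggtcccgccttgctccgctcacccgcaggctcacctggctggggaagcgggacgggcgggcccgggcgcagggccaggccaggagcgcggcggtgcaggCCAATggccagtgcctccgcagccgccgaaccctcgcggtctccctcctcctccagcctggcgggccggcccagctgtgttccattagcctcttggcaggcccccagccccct
Col4a5: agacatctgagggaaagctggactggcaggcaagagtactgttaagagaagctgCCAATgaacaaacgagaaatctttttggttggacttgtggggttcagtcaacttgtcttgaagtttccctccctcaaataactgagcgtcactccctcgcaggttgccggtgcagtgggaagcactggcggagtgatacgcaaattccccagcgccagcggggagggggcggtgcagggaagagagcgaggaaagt
Col4a6: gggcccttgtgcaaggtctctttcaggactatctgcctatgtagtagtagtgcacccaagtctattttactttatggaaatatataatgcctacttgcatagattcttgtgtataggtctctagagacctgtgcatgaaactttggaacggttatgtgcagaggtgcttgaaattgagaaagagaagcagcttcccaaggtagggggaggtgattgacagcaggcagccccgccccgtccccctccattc
The CCAAT letters stood 109 bases before the start in Col1a2, 113 bases in Col16a1 and 196 bases in Col4a5, and TATAAA stood 143 bases before the start in Col11a2. The starts of Col4a5 and Col4a6 lay 1343 bases apart on opposite strands, and those of Col4a1 and Col4a2, the other divergent pair with both windows, lay 21 bases apart.

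ATF6 is known to bind the endoplasmic reticulum stress elements, so their letters were searched in the windows from 250 bases before to 50 bases after each start, on both strands. A window was held for 35 of the 44 chains, 38 windows in all. The first element, CCAAT and CCACG separated by 9 bases of any kind, was in 0 of the 38 collagen windows and in 0.119% of all 32851 windows. The second element, ATTGG and CCACG separated by 1 base, was in 0 of 38 and in 0.0365% of all windows, and the unfolded protein response element TGACGTGG was in 0 of 38 and in 0.676% of all windows. The shorter CCAAT, which is part of the first element, was in 13 of 38 collagen windows (34.2%) against 37.4% of all windows, and TATAAA was in 5 of 38 (13.2%) against 13.6%. These are descriptions of letters in a short window and say nothing of binding elsewhere.

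The libraries held 462005 to 537926 summed FPKM, and read counts were not analysed. The study's methods name 1 nominal sequencing depth for all samples, but how many reads each value rests on is not known here. Atf6 itself was at 8.25 to 10.56 FPKM in the Atf6+/+ libraries and at 3.83 to 4.59 FPKM in the Atf6-/- libraries, without overlap (log2 fold change -1.13, SE 0.084, adjusted p = 5.17e-05 by limma). Some libraries stood apart in their tissue content. Atf6+/+ replicate 4 had the strial gene Kcne1 at 0.10 FPKM against 3.39 to 22.76 in the other libraries, Atf6-/- replicate 3 had the muscle gene Acta1 at 9.59 FPKM against 0.09 to 2.03, and Atf6+/+ replicate 5 had the highest haemoglobin and osteocalcin. The Y-linked gene Ddx3y was at 0.02 FPKM or lower in 1 of 5 Atf6+/+ and 3 of 6 Atf6-/- libraries and at 4.56 to 12.80 FPKM in the rest. Libraries with and without it were thus unevenly spread over the genotypes. Within the rest, Atf6+/+ replicate 1 was lowest at 4.56 FPKM, against 8.95 FPKM at the next lowest. It was the lowest of them also for Y-linked Eif2s3y (7.45), Kdm5d (1.53) and Uty (2.05 FPKM). The reason was not tested, and below it is counted among the libraries with Ddx3y. By the looser rule explained further on, 7 of 7 erythroid, 4 of 8 neutrophil and 2 of 6 B cell markers were called as lower in Atf6-/- libraries, where 5.37% of all genes tested were, and none had an adjusted p under 0.05. Summed erythroid levels were 4834 to 46403 FPKM in Atf6+/+ and 2874 to 9380 FPKM in Atf6-/- libraries.

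Collagen chains together took 0.110% to 0.174% of the summed FPKM in Atf6+/+ and 0.102% to 0.169% in Atf6-/- libraries. The most abundant chain was Col1a2, at a mean of 127 FPKM over the 11 libraries, followed by Col11a2 at 79.5, Col1a1 at 55.4, Col9a2 at 45.9, Col2a1 at 42.3, Col27a1 at 32.2 and Col9a3 at 28.5 FPKM. Cartilage-type chains therefore filled 5 of the first 7 places. Col1a2 was the highest of all chains in each of the 11 libraries, while the ranges of the next places overlapped between neighbours. At the other end, Col10a1 (hypertrophic cartilage), Col17a1 (hemidesmosomes), Col6a4, Col6a5 and Col6a6 had means under 0.1 FPKM and were not tested, and Col10a1 was at 0.00 to 0.18 FPKM. The FACIT chain Col21a1, which the FACIT list also names, was not analysed here.

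No collagen chain passed the genotype test. Of the 39 chains tested, 0 had an adjusted p under 0.05 (limma, Benjamini-Hochberg over 16169 genes), where 0.068% of all genes tested did, 11 genes in number. A looser rule asked for p up to 0.05 before adjustment and for a log2 fold change beyond 0.05 in either direction. By it 1 of 39 chains was called (2.56%), Col16a1, against 9.85% of all genes tested. After rescaling each library to a common sum (TPM) it called 4 of 40 chains, Col4a6, Col8a1, Col16a1 and Col20a1, against 11.1% of all genes. The same chain was the only one whose groups did not overlap, 1 of 39 against 1.25% of all genes tested in either direction and 0.606% as lower. By sign alone 18 chains stood higher and 21 stood lower in the mutant, with a median log2 fold change of -0.002 beside -0.013 over all genes. Under TPM the split was 24 higher and 16 lower of 40 chains, and without Atf6+/+ replicate 5 it was 24 higher and 15 lower of 39, so the balance of signs depended on the scaling and on 1 library.

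**Figure D1:**
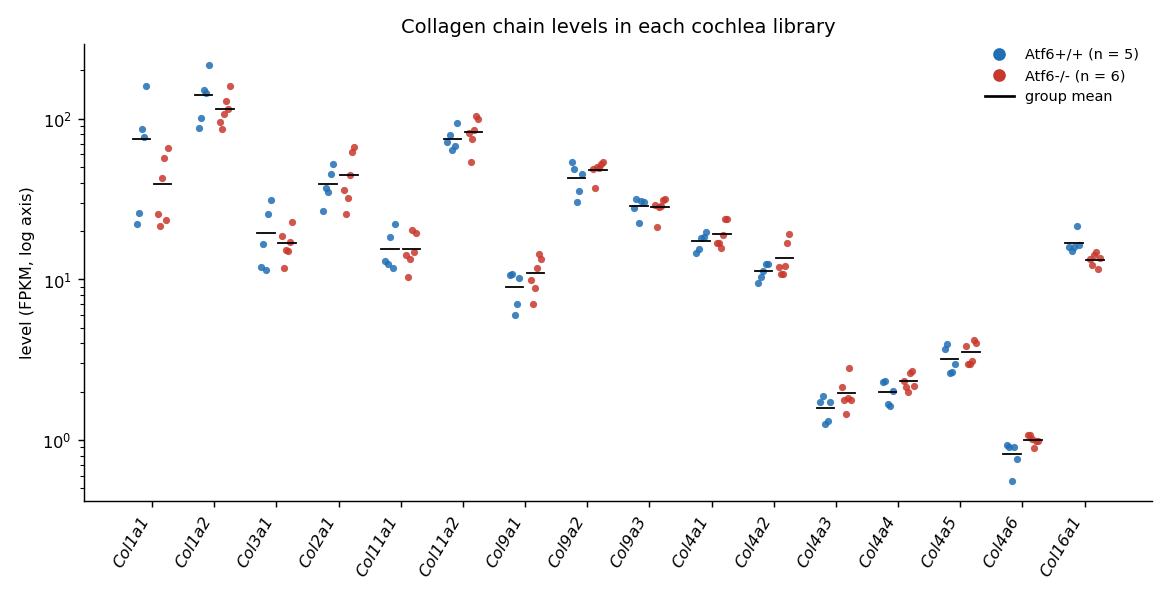
FPKM (log axis) of 16 collagen chains in each library, with Atf6+/+ libraries in blue (n = 5), Atf6-/- libraries in red (n = 6) and group means as black bars. The 2 groups overlap for every chain shown except Col16a1, and Col1a1 has the widest spread, from 21.41 to 160.67 FPKM.

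Col16a1 encodes a FACIT that is known from connective tissue matrix and cell contacts. It was at 15.87, 15.02, 15.83, 21.65 and 16.42 FPKM in Atf6+/+ replicates 1 to 5 and at 11.55 FPKM at the lowest, 13.4 at the median and 14.82 at the highest in the 6 Atf6-/- libraries. The highest Atf6-/- library did not reach the lowest Atf6+/+ library, and Atf6+/+ replicate 4 stood well above the rest of its group. The log2 fold change was -0.34 (SE 0.094, unadjusted p = 0.00348, adjusted p = 0.362 by limma, exact permutation p = 0.00433), so the difference did not pass correction over all genes. Over all 24 fits made, with each library left out, other scalings and filters or marker scores as covariates, its log2 fold change lay between -0.38 and -0.23 and its adjusted p between 0.286 and 0.946. The unadjusted p was at most 0.05 in 23 of 24 fits and 0.0523 when the bone marrow score was added as a covariate. Where Ddx3y was detected, Atf6+/+ libraries were at 15.02 to 21.65 FPKM and Atf6-/- libraries at 11.55 to 14.82 FPKM, and a fit with that split as a term gave -0.34 as well.

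The type I chains Col1a1 and Col1a2 and the type V chain Col5a2 had negative log2 fold changes, none called. All of them turned positive with the bone marrow score as a covariate (0.18, 0.10 and 0.12). That score was itself 1.16 lower on average in Atf6-/- than in Atf6+/+ libraries (exact permutation p = 0.0238). In fits with it, genotype and the score are therefore partly confounded. The other type V chains, Col5a1 and Col5a3, stood at -0.07 and -0.12 without a covariate, neither called. Col1a1, the alpha-1 chain of type I collagen and the main protein of bone matrix, was at 22.04, 25.78, 86.47, 77.08 and 160.67 FPKM in Atf6+/+ replicates 1 to 5, and ran from 21.41 through a median of 34.2 to 66.04 FPKM in Atf6-/- libraries. The Atf6+/+ libraries split into a low pair (replicates 1 and 2) and 3 high libraries, and the Atf6-/- range lay within the Atf6+/+ range except at its lowest value. Means were 74.4 ± 56.3 FPKM (SD, n = 5) and 39.5 ± 19.0 FPKM (SD, n = 6), with a log2 fold change of -0.67 (SE 0.50, adjusted p = 0.648 by limma). Its partner Col1a2 was at 87.60, 101.37, 150.91, 144.54 and 217.05 FPKM in Atf6+/+ replicates 1 to 5 and between 86.71 and 160.78 FPKM, median 111, in Atf6-/- libraries. The order of the Atf6+/+ libraries was much like that of Col1a1, and the log2 fold change was -0.23 (SE 0.22, adjusted p = 0.724 by limma). It was -0.39 without Atf6+/+ replicate 1 and -0.06 without Atf6+/+ replicate 5, and that of Col1a1 was -1.02 and -0.30. Col3a1, the chain of soft connective tissue and vessel walls, was at 12.02, 16.54, 11.51, 25.72 and 31.36 FPKM in Atf6+/+ replicates 1 to 5, and at 11.80 to 22.74 FPKM, median 16.3, in Atf6-/- libraries (log2 fold change -0.12, SE 0.26). Replicates 4 and 5 were the high ones here, and replicate 3, high for type I, was the lowest. The difference turned positive without Atf6+/+ replicate 4, without Atf6+/+ replicate 5 (0.08) and with the osteoblast score as a covariate (0.02), and it moved by over 1.5 times also without Atf6+/+ replicates 1 or 3 or Atf6-/- replicates 2 or 6, down to -0.28.

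Fibrillar chains of the cochlear matrix were not called either. Col2a1, the chain of the type II homotrimer of cartilage and tectorial membrane, was at 26.74, 37.02, 35.13, 45.58 and 52.66 FPKM in Atf6+/+ replicates 1 to 5 and at 25.50 to 67.11 FPKM, median 40.6, in Atf6-/- libraries. The groups overlapped, although Atf6-/- replicates 5 and 6, at 61.91 and 67.11 FPKM, lay above every Atf6+/+ library, with a log2 fold change of 0.13 (SE 0.25, adjusted p = 0.879 by limma). That value was -0.07 with the ligament score as a covariate and -0.0012 without Atf6-/- replicate 6, and it moved by over 1.5 times also without Atf6+/+ replicates 1 or 5 or Atf6-/- replicates 2, 3 or 5, up to 0.28. Col11a1, whose product nucleates cartilage fibrils with type II, was at 12.96, 12.48, 18.41, 11.81 and 22.20 FPKM in Atf6+/+ replicates 1 to 5 and between 10.35 and 20.45 FPKM, median 14.5, in Atf6-/- libraries. Group means were 15.6 ± 4.54 FPKM (SD, n = 5) and 15.5 ± 3.84 FPKM (SD, n = 6). Col11a2, the second type XI chain and a deafness gene, had 71.47, 78.78, 63.63, 67.28 and 94.33 FPKM in Atf6+/+ replicates 1 to 5 and 53.76 to 103.58 FPKM, median 83.2, in Atf6-/- libraries (log2 fold change 0.13, SE 0.16). That difference moved by over 1.5 times without Atf6+/+ replicates 3 or 5 or Atf6-/- replicates 2, 5 or 6, from 0.06 without Atf6-/- replicate 5 to 0.25 without Atf6-/- replicate 2. Over all 11 fibrillar chains 3 were higher and 8 lower by sign, with a median log2 fold change of -0.10, and none was called by either rule. Without Atf6+/+ replicate 5, 6 were higher and 5 lower. With bone marrow as a covariate 9 were higher and 2 lower.

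Type IX collagen coats type II fibrils, and none of its chains was called. Col9a1 was at 10.68, 10.79, 5.99, 7.06 and 10.26 FPKM in Atf6+/+ replicates 1 to 5 and at 7.06 to 14.51 FPKM, median 10.8, in Atf6-/- libraries (log2 fold change 0.28, SE 0.21, adjusted p = 0.643 by limma). Atf6+/+ replicates 3 and 4 were the low ones, and the other 3 lay inside the Atf6-/- range. Col9a2 had 54.00, 48.97, 30.49, 35.80 and 45.30 FPKM in Atf6+/+ replicates 1 to 5, with the same low pair, and 36.85 to 53.56 FPKM, median 49.5, in Atf6-/- libraries (log2 fold change 0.19, SE 0.14). Col9a3 was at 27.81, 31.87, 22.60, 30.84 and 30.15 FPKM in Atf6+/+ replicates 1 to 5, and at 21.24 to 31.65 FPKM, median 28.9, in Atf6-/- libraries (log2 fold change -0.01, SE 0.11). Here only replicate 3 was low among Atf6+/+ libraries, and the sign of this small difference turned without Atf6+/+ replicates 2, 4 or 5 or Atf6-/- replicate 2 and under TPM. Without Atf6+/+ replicate 3 the log2 fold change was 0.15 for Col9a1 and 0.08 for Col9a2. Of the 9 FACIT chains tested 5 were higher and 4 lower by sign with a median of 0.002, and after Col16a1 the lowest unadjusted p among them was that of Col20a1 (log2 fold change 0.17, unadjusted p = 0.104, adjusted p = 0.564 by limma), whose difference was 0.11 without Atf6+/+ replicate 2.

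All 6 basement membrane chains were higher by sign in Atf6-/- cochleae, with a median log2 fold change of 0.23 beside -0.013 over all genes. None was called. Col4a1 and Col4a2 form the widespread type IV heterotrimer. Col4a1 was at 14.56, 15.47, 18.23, 18.42 and 19.72 FPKM in Atf6+/+ replicates 1 to 5 and at 15.72 to 23.85 FPKM, median 17.9, in Atf6-/- libraries (log2 fold change 0.15, SE 0.12). Col4a2 was at 9.48, 10.34, 11.23, 12.55 and 12.52 FPKM in Atf6+/+ replicates 1 to 5 and at 10.82 to 19.23 FPKM, median 12.03, in Atf6-/- libraries (log2 fold change 0.25, SE 0.15). For both chains Atf6-/- replicates 5 and 6 lay above all other libraries, and the other 4 lay within the Atf6+/+ range.

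Col4a3, Col4a4 and Col4a5 form the trimer whose loss causes Alport syndrome with hearing loss. Col4a3 was at 1.72, 1.88, 1.26, 1.32 and 1.72 FPKM in Atf6+/+ replicates 1 to 5 and at 1.46 to 2.83 FPKM, median 1.81, in Atf6-/- libraries (log2 fold change 0.29, SE 0.16). Col4a4 was at 2.30, 2.35, 1.67, 1.63 and 2.02 FPKM against 1.99 to 2.69 FPKM, median 2.25 (log2 fold change 0.22, SE 0.12). The X-linked Col4a5 was at 3.68, 3.97, 2.61, 2.67 and 2.96 FPKM against 2.96 to 4.23 FPKM, median 3.50 (log2 fold change 0.15, SE 0.14). In all 3 chains Atf6+/+ replicates 3 and 4 were the lowest of the 11 libraries, the same pair that was low for Col9a1 and Col9a2. Col4a6, also X-linked, was at 0.93, 0.91, 0.56, 0.91 and 0.76 FPKM against 0.89 to 1.08 FPKM, median 1.0, with overlap only through 1 Atf6-/- library (log2 fold change 0.29, SE 0.14, unadjusted p = 0.0575, adjusted p = 0.505 by limma). Leaving out 1 library moved 5 of the 6 differences by over 1.5 times. Col4a1 was at 0.09 without Atf6+/+ replicate 1, Atf6-/- replicate 5 or Atf6-/- replicate 6, Col4a2 at 0.14 without Atf6-/- replicate 6, Col4a3 at 0.18 without Atf6-/- replicate 5 and Col4a6 at 0.18 without Atf6+/+ replicate 3. Col4a5 ranged from 0.09 to 0.24 and moved that far without Atf6+/+ replicates 2, 3 or 4 or Atf6-/- replicate 5. The same sign of all 6 chains was kept in each of these fits, under TPM and median-of-ratios scaling and in the fit with Ddx3y detection as a term, while Col4a5 turned to -0.05 with the bone marrow score as a covariate and to -0.04 with the spiral ligament score.

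**Figure D2:**
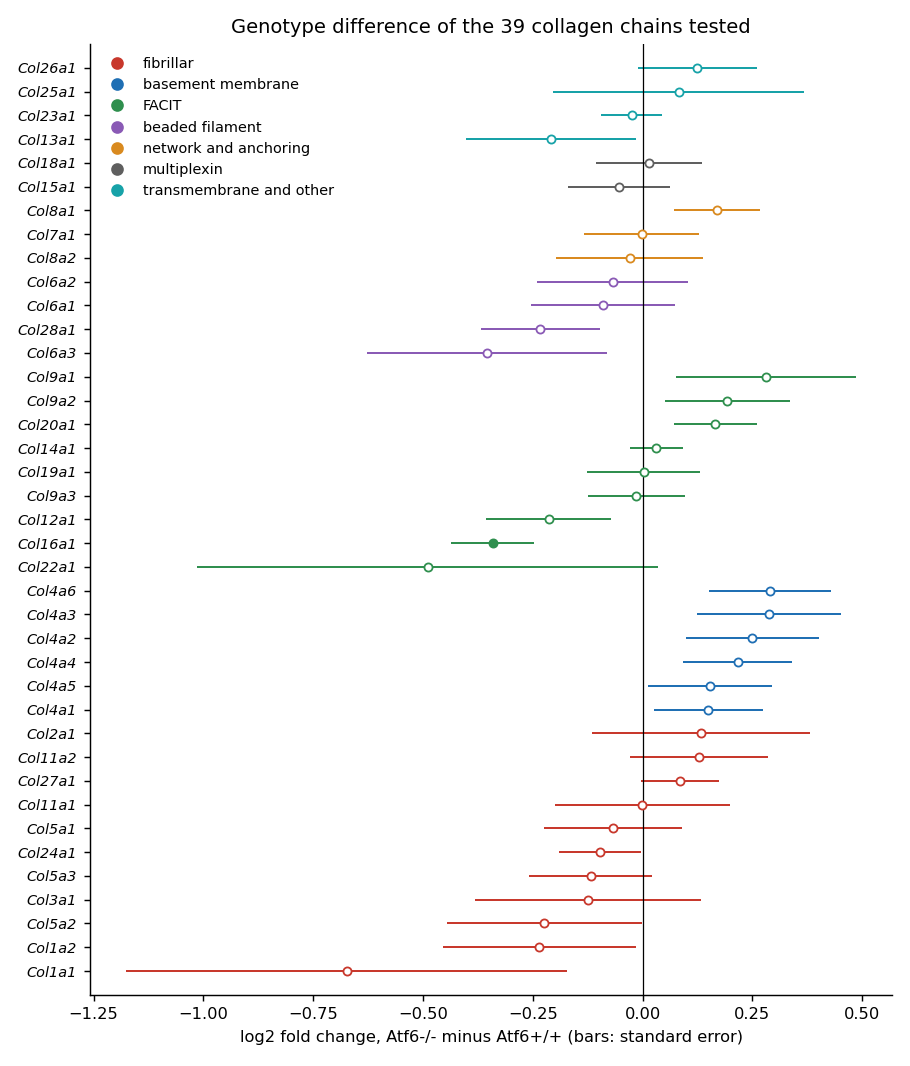
Log2 fold change (Atf6-/- minus Atf6+/+, horizontal axis) of the 39 tested chains with standard errors as bars, grouped and coloured by class. The filled point, Col16a1 at -0.34, is the only chain with an unadjusted p of at most 0.05, and the 6 basement membrane chains (blue) lie between 0.15 and 0.29.

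Of the remaining classes, the 4 tested beaded filament chains were all lower by sign, with a median of -0.16. Without Atf6+/+ replicate 5 they were 2 higher and 2 lower, with a median of -0.06, and the split was the same with the osteoblast score as a covariate. The most abundant of them were the microfibril chains Col6a2 and Col6a1, at means of 22.5 and 19.7 FPKM. Col6a3, the third chain of the same microfibril, was at a mean of only 1.84 FPKM, with 1.22 to 3.65 FPKM in Atf6+/+ and 0.89 to 1.75 FPKM in Atf6-/- libraries. The network and anchoring chains tested (Col7a1, Col8a1 and Col8a2) had a median of -0.002, the multiplexins Col15a1 and Col18a1, which carry the endostatin-type fragments, a median of -0.02, and the 4 transmembrane and other chains a median of 0.03. None of these 13 chains was called by either rule, and their log2 fold changes lay between -0.35 (Col6a3) and 0.17 (Col8a1). Leaving out 1 library brought Col6a3 to as little as -0.14 (Atf6+/+ replicate 5; also over 1.5 times smaller without Atf6+/+ replicate 4 or Atf6-/- replicate 5) and Col8a1 to 0.09 (Atf6+/+ replicate 3).

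Levels of type I chains were set against bone markers. An osteoblast score was taken as the mean log2 level of 9 markers (Bglap, Bglap2, Sp7, Ibsp, Alpl, Runx2, Spp1, Ifitm5 and Dlx5), which lay between 4.21 and 6.14 in Atf6+/+ and between 4.08 and 5.48 in Atf6-/- libraries, 0.37 lower on average (exact permutation p = 0.396). By sign 8 of the 9 markers were lower and none was called, and their summed level was 2065 to 3656 FPKM in Atf6+/+ and 2014 to 2556 FPKM in Atf6-/- libraries. The libraries fell into separate clusters, with 5 at a score of 4.08 to 4.43 (Atf6+/+ replicates 1 and 2, Atf6-/- replicates 1, 2 and 5) and 6 at 5.09 to 6.14, so no correlation over all libraries is given. Col1a1 was at 21.41 to 25.78 FPKM in the 5 libraries of low score and at 42.84 to 160.67 FPKM in the 6 of high score. Col1a2 was at 86.71 to 115.17 and at 106.96 to 217.05 FPKM. By contrast Col2a1 was at 25.50 to 61.91 and at 32.33 to 67.11 FPKM, and Col9a2 at 36.85 to 54.00 and at 30.49 to 53.56 FPKM.

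With genotype in the model, the slope on the osteoblast score passed an adjusted p of 0.05 in 5 of 39 chains (12.8%), where 0.179% of all genes tested did. Each slope is taken over all 11 libraries and so spans the gap between the clusters of low and high score, and it does not show a graded relation within either. The chains called were Col1a1 with a change of 1.32 log2 units per unit of score (SE 0.12, adjusted p = 0.00107 by limma), Col22a1 with 1.30 (adjusted p = 0.019), Col1a2 with 0.53 (adjusted p = 0.0344), Col13a1 with 0.47 (adjusted p = 0.0345) and Col5a2, the type V chain that copolymerises with type I, with 0.53 (adjusted p = 0.046). Col22a1, a FACIT of tissue junctions, ran from 0.48 to 4.55 FPKM, the widest relative range of the chains tested (9.48-fold), followed by Col1a1 (7.5-fold). The call of Col1a1 held when each of the 11 libraries was left out in turn (slope 1.22 to 1.38, adjusted p at most 0.0127 by limma). The other 4 did not have that stability: Col22a1 was called in 5 of the 11 such fits, Col1a2 in 2, and Col13a1 and Col5a2 in 1 each, and the libraries whose removal ended each call were both Atf6+/+ and Atf6-/-. After rescaling to TPM only Col1a1 and Col22a1 were called. With 6 osteocyte markers in place of the osteoblast markers, Col1a1 had a slope of 1.53 at an adjusted p of 0.0586 by limma, and Col13a1 and Col6a3 were the chains called. None of the 6 cochlear chains was called on the osteoblast score. Their slopes lay between -0.04 and 0.39, the highest being Col11a1 (0.39, SE 0.11, adjusted p = 0.424 by limma) and Col2a1 (0.38, SE 0.17, adjusted p = 0.612 by limma).

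Within the 6 libraries of high osteoblast score, Pearson's r of the log2 level with the score was 0.876 for Col1a1 (exact permutation p = 0.0361, adjusted 0.206 over 8 chains; Spearman's rho 0.60, exact p = 0.242) and 0.839 for Col1a2 (exact permutation p = 0.0514, adjusted 0.206; rho 0.543, exact p = 0.297). Without the 2 libraries farthest from the median score (Atf6+/+ replicate 5 and Atf6-/- replicate 3) both values were negative, -0.35 and -0.64, so within this cluster the relation rests on those libraries. For the 6 cochlear chains r lay between 0.005 and 0.455 in the same libraries, and no adjusted value passed 0.05. All these correlations pool the genotypes without a genotype term.

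Of the 6 cochlear chains, Col9a1, Col9a2 and Col11a2 passed a test of their slope on a score of spiral ligament fibrocyte markers, which 5.14% of all genes tested passed. Col2a1, Col9a3 and Col11a1 did not pass that test, and the score was added after seeing the data. A spiral ligament score, the mean log2 level of the fibrocyte markers Coch, Otos, Emilin2, Car3, Otor, Tbx18 and Pou3f4, was 6.23 to 6.96 in Atf6+/+ and 6.44 to 7.47 in Atf6-/- libraries, 0.33 higher on average (exact permutation p = 0.132). Summed levels of the fibrocyte list (these genes and Dlx5) were 3268 to 4952 FPKM in Atf6+/+ and 4185 to 6399 FPKM in Atf6-/- libraries. Of its 8 genes 7 were higher by sign, with Coch and Emilin2 called as higher at the looser rule, where 4.48% of all genes tested were. Other lists were higher by sign too. They were 6 of 6 hair cell markers (2 called), 5 of 6 tectorial membrane and supporting cell markers (1 called) and 5 of 8 chondrocyte markers (2 called). On the ligament score 3 libraries were low (Atf6+/+ replicates 3 and 4 and Atf6-/- replicate 2, at 6.23 to 6.44) and 8 were at 6.88 to 7.47. Col9a1 was at 5.99 to 7.06 FPKM in the 3 low libraries and at 8.84 to 14.51 FPKM in the other 8. Col9a2 did not overlap either, at 30.49 to 36.85 against 45.30 to 54.00 FPKM, and Col11a2 was separated by a narrower gap, at 53.76 to 67.28 against 71.47 to 103.58 FPKM. Col9a3 (21.24 to 30.84 against 27.81 to 31.87 FPKM) and Col11a1 (10.35 to 18.41 against 12.48 to 22.20 FPKM) overlapped. Col2a1 (25.50 to 45.58 against 26.74 to 67.11 FPKM) and Col1a1 (21.41 to 86.47 against 22.04 to 160.67 FPKM) overlapped between these libraries.

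**Figure D3:**
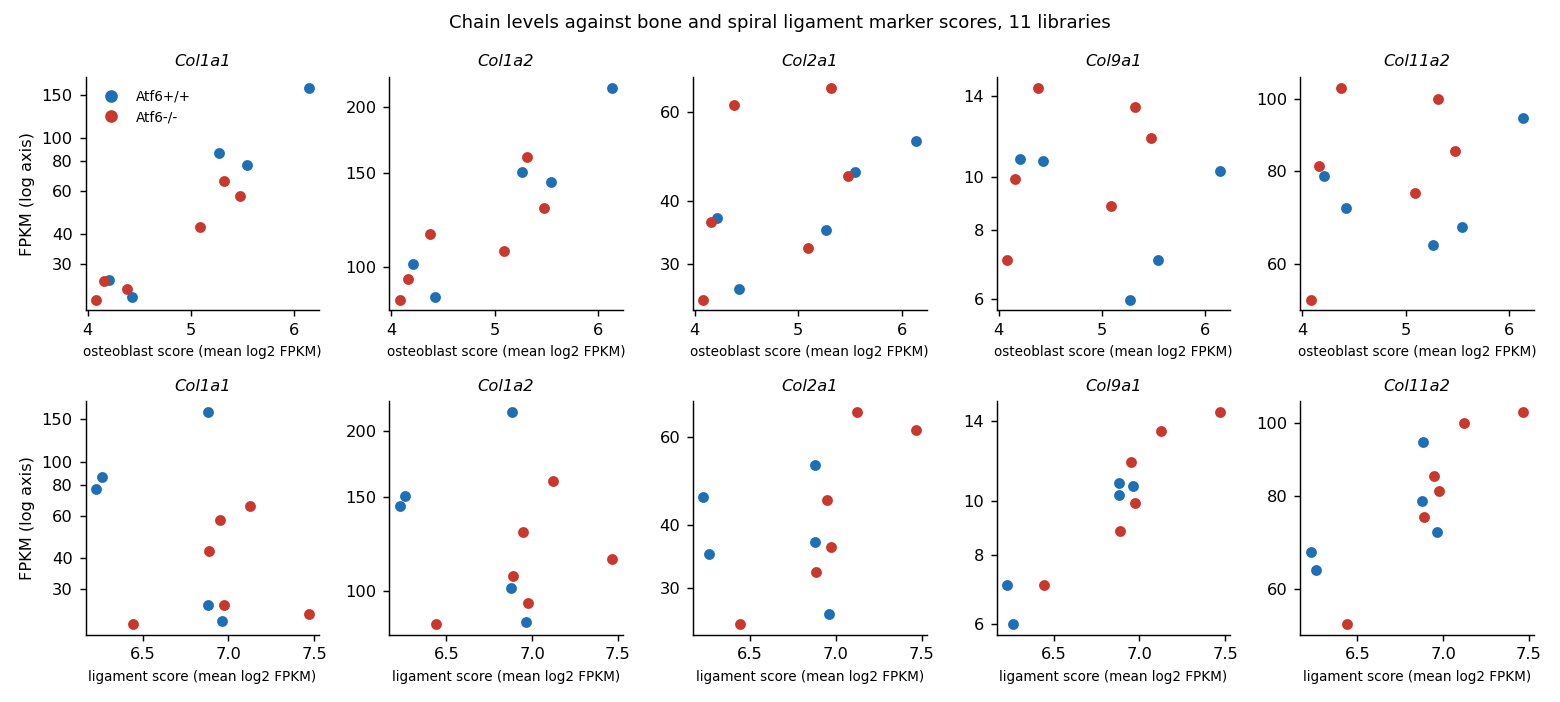
FPKM (log axis) of 5 chains in the 11 libraries against the osteoblast score (top row) and the spiral ligament score (bottom row), both mean log2 FPKM of markers, with Atf6+/+ libraries in blue and Atf6-/- libraries in red. Col1a1 is at most 25.78 FPKM in the 5 libraries of low osteoblast score, and Col9a1 is at most 7.06 FPKM in the 3 libraries of low ligament score.

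In a model with genotype and both scores, the slope on the ligament score passed an adjusted p of 0.05 in 4 of 39 chains (10.3%), where 5.14% of all genes tested did. They were Col9a1 (slope 1.07, SE 0.12, adjusted p = 0.00186 by limma), Col11a2 (0.75, SE 0.10, adjusted p = 0.00336), Col9a2 (0.68, SE 0.12, adjusted p = 0.0116) and Col4a5 (0.55, SE 0.13, adjusted p = 0.0372). Not called were Col9a3 (0.42, adjusted p = 0.0956 by limma), Col2a1 (0.69, adjusted p = 0.189) and Col11a1 (0.42, adjusted p = 0.252). These slopes too span the gap between the clusters of low and high score. The same slope passed for 6 of 8 fibrocyte markers, but these 6 are part of the score, so their passing was largely fixed in advance. Outside the score it passed as positive for 3 of 6 hair cell markers (Ocm, Slc26a5 and Strc), the strial Kcnq1, Sox9 and Bglap. Bglap is part of the osteoblast score in the same model. As negative the ligament slope passed for the osteoclast markers Mmp9 and Atp6v0d2 and the B cell marker Cd79a. It was thus not particular to fibrocyte markers. The osteoblast slopes of the same model passed in the 5 chains named above (0.297% of all genes tested), and 0 chains passed on both scores. Leaving out each library in turn kept the call of Col9a1 in all 11 fits. Col11a2 and Col9a2 were called in 10 of 11 and missed without Atf6-/- replicate 2 (adjusted p = 0.0545 and 0.110 by limma), and Col4a5 was called in 2 of 11. Within the 8 libraries of high ligament score, Pearson's r of Col9a1 with the score was 0.833 (exact permutation p = 0.00503, adjusted 0.0403 over 8 chains, Spearman's rho 0.50, exact p = 0.216). It fell to 0.312 without Atf6-/- replicates 5 and 6, on which it rests. Unlike the slopes, this correlation pools the genotypes without a genotype term. Once the ligament score was in the model, the genotype difference of Col9a1 was -0.07, that of Col9a2 -0.03 and that of Col11a2 -0.11, against 0.28, 0.19 and 0.13 without it. Likewise the difference of Col1a1 was -0.19 with the osteoblast score and 0.18 with the bone marrow score, against -0.67 without them. Whether tissue content accounts for these differences was not tested.

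**Figure D4:**
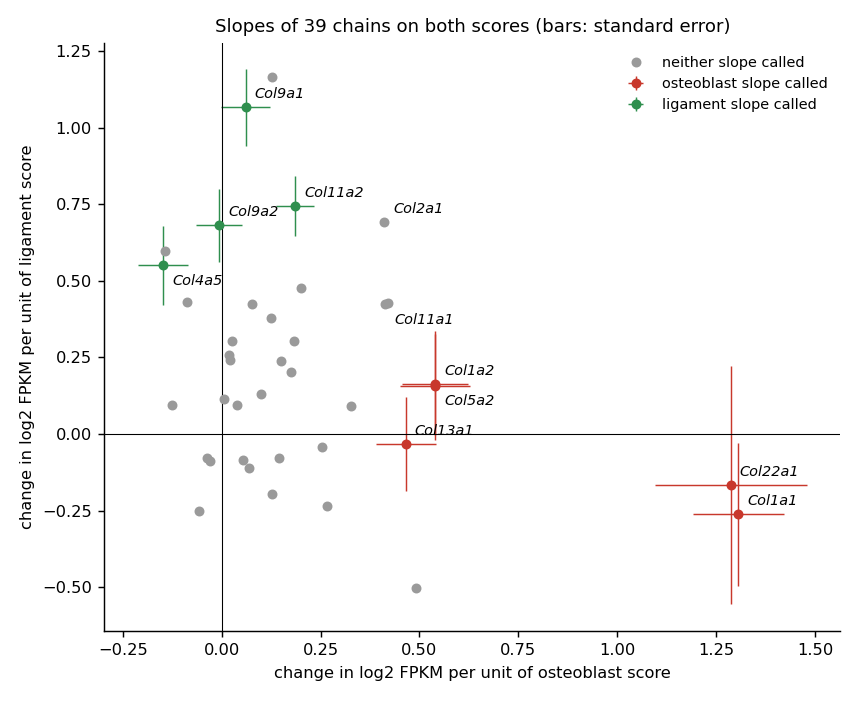
Slopes of the 39 tested chains on the osteoblast score (horizontal) and on the ligament score (vertical) from 1 model with genotype, in log2 FPKM per unit of score, with standard errors as bars for called chains. The osteoblast-called chains (red) reach 1.31 for Col1a1, the ligament-called chains (green) reach 1.07 for Col9a1, and none is called on both.

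Ratios of partner chains were taken within each library. Col1a1 stood below Col1a2 in every library, with a ratio of their levels per length of 0.252, 0.254, 0.573, 0.533 and 0.740 in Atf6+/+ replicates 1 to 5 and of 0.205 to 0.445, median 0.335, in Atf6-/- libraries. As background, the type I trimer holds more alpha-1 than alpha-2 chains. The ratio of Col1a1 to Col2a1 ranged from 0.381 in Atf6-/- replicate 5 to 3.05 in Atf6+/+ replicate 5, an 8.0-fold range. It was at most 1.33 in the Atf6-/- libraries and above that in 3 of 5 Atf6+/+ libraries. The narrowest ratios were Col6a1 to Col6a2, at 0.778 to 0.940, and Col4a1 to Col4a2, at 1.24 to 1.62 over all libraries. Cochlear partners spread more, 2.18-fold for Col2a1 to Col11a1, 2.01-fold for Col11a1 to Col11a2 and 1.57-fold for Col9a1 to Col9a2, against 3.61-fold for Col1a1 to Col1a2. The ratio of Col9a3 to Col9a2 spread from 0.515 to 0.861 over the 5 Atf6+/+ libraries and from 0.569 to 0.604 over the 6 Atf6-/- libraries. For all 11 ratios computed the ranges of the genotypes overlapped.

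**Figure D5:**
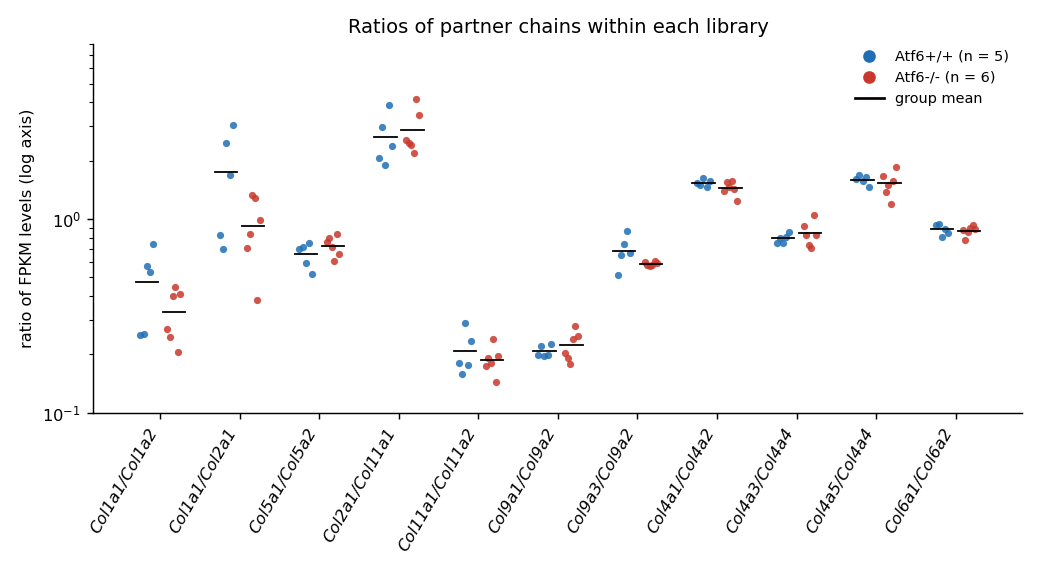
Ratios of FPKM of partner chains within each library (log axis), Atf6+/+ libraries in blue (n = 5), Atf6-/- libraries in red (n = 6), group means as black bars. Col1a1 to Col2a1 spans 0.381 to 3.05, while Col4a1 to Col4a2 and Col6a1 to Col6a2 stay within 1.24 to 1.62 and 0.778 to 0.940.

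Genes that act on collagens were read by step of the pathway, and 0 of the 92 tested on these lists had an adjusted p under 0.05. Of 15 genes of prolyl and lysyl modification, 1 was called at the looser rule, as higher. It was P4hb, protein disulfide isomerase and the beta subunit of prolyl 4-hydroxylase, at 86.27, 91.04, 95.07, 96.71 and 104.03 FPKM in Atf6+/+ replicates 1 to 5 and at 98.27 to 113.40 FPKM, median 104, in Atf6-/- libraries (log2 fold change 0.15, SE 0.053, adjusted p = 0.430 by limma). The hydroxylase alpha subunits P4ha1, P4ha2 and P4ha3 had log2 fold changes of -0.002, -0.05 and -0.10. Of 10 genes of folding and export, 1 was called, Sec24d, the COPII coat subunit known for carrying procollagen. It was at 10.38, 10.58, 8.45, 7.79 and 10.31 FPKM in Atf6+/+ replicates 1 to 5 and at 9.76 to 12.59 FPKM, median 11.8, in Atf6-/- libraries (log2 fold change 0.29, SE 0.094, adjusted p = 0.400 by limma). Only Atf6-/- replicate 2 fell within the Atf6+/+ range. The collagen chaperone Serpinh1 (HSP47) had a log2 fold change of 0.09, and the large-cargo receptor Mia3 one of 0.03.

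Outside the cell, 1 of 13 maturation genes was called, the cross-linking lysyl oxidase Lox, at 10.43, 15.47, 9.11, 10.97 and 15.35 FPKM in Atf6+/+ replicates 1 to 5 and at 15.11 to 23.45 FPKM, median 17.3, in Atf6-/- libraries (log2 fold change 0.58, SE 0.15, adjusted p = 0.345 by limma). The groups overlapped only between 15.11 and 15.47 FPKM, where Atf6+/+ replicates 2 and 5 and Atf6-/- replicate 6 lay. Among 15 fibril-associated proteins tested, the small leucine-rich proteoglycan Dcn was called as lower (345.92 to 501.71 FPKM against 325.87 to 432.18 FPKM, log2 fold change -0.23), and among 15 basement membrane partners the laminin chain Lamc1 was called as higher (30.30 to 36.33 FPKM against 32.88 to 45.58 FPKM, log2 fold change 0.20). Of 15 breakdown genes, Timp4, an inhibitor of matrix metalloproteinases, was higher without overlap, at 1.94, 1.84, 1.53, 1.98 and 1.75 FPKM in Atf6+/+ replicates 1 to 5 and at 2.00 to 5.22 FPKM, median 2.62, in Atf6-/- libraries (log2 fold change 0.60, adjusted p = 0.410 by limma). Mmp9 (gelatinase B, made by osteoclasts and neutrophils) and Mmp8 (neutrophil collagenase) were called as lower, both with a log2 fold change of -1.57 (adjusted p = 0.462 and 0.475 by limma), and were highest in Atf6+/+ replicate 3 at 49.27 and 23.63 FPKM. Without that library the log2 fold change of Mmp8 was -1.04. Beside them, 8 of 8 neutrophil markers were lower by sign, with summed levels of 273 to 3386 FPKM against 111 to 1294 FPKM, and so were 7 of 7 osteoclast markers tested (Mmp9 among them), with 15.4 to 151 FPKM against 16.4 to 57.9 FPKM. Their part in the result was not tested. Of 9 collagen receptors 1 was called, Lair1, an inhibitory receptor of leukocytes (log2 fold change -0.37, adjusted p = 0.452 by limma). In all, 5 of 92 pathway genes were called as higher and 4 as lower at the looser rule, where 4.48% and 5.37% of all genes tested were.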

How the data were processed

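Total RNA of whole cochleae was sequenced as stranded mRNA libraries. Reads were aligned by the authors with HISAT2 (version 2.0.4) to GRCm39 and quantified with RSEM (version 1.2.12 in the submitters' processing notes), and the deposited values are FPKM per gene. Columns of the authors' own comparison, made with DESeq2 (version 1.4.5), were not used. Counts were not analysed. The study's methods state a nominal depth, but the reads behind each value and their precision are unknown.

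Groups came from the sample titles and genotype labels. Testing covered genes whose mean over the 11 libraries reached 0.1 FPKM, on the log2(FPKM + 0.1) scale with limma (version 3.58.1 in R 4.3.3; trend on mean level) and Benjamini-Hochberg adjustment over 16169 genes. Fold changes on this scale understate those of low genes. Exact permutation tests were two-sided over all 462 assignments of genotype, with a smallest possible p of 0.00216. The looser rule (p up to 0.05 before adjustment, log2 fold change beyond 0.05 either way) was modelled on the cutoffs of the study, with the unadjusted p and the log2 scale chosen here. Marker scores are means of log2(FPKM + 0.1), and the bone marrow score averages the neutrophil, B cell and erythroid scores. A pooled correlation with the scores was planned but is not given, since the libraries fell into separate clusters. Other pseudocounts, filters, scalings, variance estimates, covariates and the omission of each library were tried. The ligament score, the fit with both scores, the Ddx3y term and the refits of the slopes were added after seeing the data. The scripts were tested on simulated data.

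Members and lists were chosen with earlier results of these data known. Values per library are given for Col1a1, Col1a2, Col2a1, Col3a1, the type IV, IX and XI chains and any other chain at an unadjusted p of at most 0.05 or without overlap, and from each pathway list up to 5 genes at that p are named. Upstream sequences were RefSeq windows on GRCm38.p6, matched by gene identifier.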

Additional observations from a re-analysis of the deposited data

Results flagged for a closer look

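Of 98 groups of libraries tested, 10 held 1 library whose gap to its nearest neighbour took an unusually large part of the group's range (Dixon's test), and chance gives about 1 in 20. In Atf6+/+ replicate 4, Col16a1 was at 21.65 FPKM against 15.02 to 16.42 in the other 4 libraries, and Col25a1, a transmembrane collagen of neurons, was at 0.57 FPKM against 0.86 to 0.96. Atf6+/+ replicate 3 had Col18a1 at 5.65 FPKM against 7.08 to 7.57 and Col19a1 at 0.83 FPKM against 0.67 to 0.71. Col15a1 was at 7.59 FPKM in Atf6+/+ replicate 5 and at 6.42 to 6.66 in the other 4. Among Atf6-/- libraries, replicate 2 had Col9a2 at 36.85 FPKM against 48.79 to 53.56, Col9a3 at 21.24 FPKM against 28.34 to 31.65 and Timp4 at 5.22 FPKM against 2.00 to 2.95. Atf6-/- replicate 5 had Col6a3 at 0.89 FPKM against 1.66 to 1.75 and Col7a1, the anchoring fibril chain, at 0.82 FPKM against 0.57 to 0.65.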

How the results depend on the processing

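The count of chains with an adjusted p under 0.05 for genotype was 0 under every alternative run. At the looser rule 1 chain was called, and the count was 2 with a pseudocount of 1 and with the replicate block, 4 after rescaling to TPM, 0 with the bone marrow score and 1 to 2 when each library was left out. Without overlap there were 1 to 2 chains when each library was left out. Over all genes, 1592 were called at the looser rule and 847, 1017 and 1060 with the bone marrow, ligament and both scores as covariates, and 11 had an adjusted p under 0.05 against 6 with the bone marrow score. The labels do not say whether replicate numbers mark a pairing. The correlation of deviations between same-numbered libraries lay between -0.21 and 0.12, which cannot show whether they were paired by litter or dissection. The replicate block left 4 genes with an adjusted p under 0.05 and gave -0.0012 for Col2a1. Atf6-/- replicate 6 has no partner of its number and adds nothing to the blocked difference, and leaving that library out without a block gave the same value.

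Directions of several differences were not stable, those of Col1a1 and Col22a1, the largest among the chains, included. The bone marrow score, used in part of these fits, itself differed between the genotypes (exact permutation p = 0.0238). With the bone marrow score the log2 fold changes were 0.18 for Col1a1, 0.10 for Col1a2, 0.12 for Col5a2, 0.32 for Col22a1, 0.26 for Col11a1, -0.053 for Col4a5, -0.036 for Col9a2 and -0.0027 for Col8a1. With the ligament score they were -0.069 for Col2a1, -0.11 for Col11a2, -0.038 for Col4a5, -0.068 for Col9a1 and -0.033 for Col9a2, and with both scores 0.011 for Col11a1, -0.050 for Col11a2, -0.083 for Col4a5, -0.050 for Col9a1, -0.035 for Col9a2 and 0.040 for Col22a1. With the osteoblast score they were 0.023 for Col3a1, 0.14 for Col11a1 and 0.0068 for Col9a3. TPM gave 0.056 for Col11a1 and 0.043 for Col9a3, median-of-ratios scaling 0.011 for Col11a1, and the Ddx3y term 0.030 for Col11a1 and 0.020 for Col9a3. Leaving out each library gave -0.0012 to 0.28 for Col2a1, -0.28 to 0.077 for Col3a1, -0.088 to 0.14 for Col11a1 and -0.097 to 0.067 for Col9a3.

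The osteoblast slope called 2 chains under TPM, 2 with osteocyte markers and 1 to 4 when each library was left out, and the ligament slope 1 to 6. The slope was 1.53 for Col1a1 with osteocyte markers, and for Col1a2 0.51 under TPM, 0.58 with osteocyte markers and 0.47 to 0.58 when each library was left out, past the threshold in 2 of 11. For Col9a1 it was -0.036 under TPM, -0.069 with osteocyte markers and -0.11 to 0.11 when each library was left out, for Col9a2 -0.12 to 0.035 and for Col9a3 -0.019 to 0.13. The cause of these changes was not tested. Among the values recomputed without leaving out a library, 635 kept their direction and side of the threshold or moved within the replicate spread, 11 moved further, 30 reversed and 3 were no longer past the threshold.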
